A study of Mus musculus with 8 samples.

Results

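Matn4, the gene of the matrix protein matrilin-4, and 4 genes near it on mouse chromosome 2 were followed in RNA from Achilles tendons. The set holds Kcns1, Slpi, Matn4, Rbpjl and Sdc4, which are 5 of the 15747 genes with values among 55450 listed. The genes were selected on their higher values in injured than in sham tendon, so their levels and fold changes in that comparison are a description and carry no test. All 5 genes had values in all 8 libraries. The injury group was 4 libraries from wild type C57BL/6J Achilles tendons that had been partially transected with an ear punch 1.5 mm wide, which left a half-round gap of 0.75 mm on the lateral side. The sham group was 4 libraries from sham-operated tendons of the same strain and genotype. The tendon had been parted from the soleus muscle before RNA was extracted. The labels do not describe the sham operation apart from this, and give neither the age of the mice nor the time between operation and sampling. Nothing in the labels says that the libraries came from separate animals, so p-values measure only how these samples vary, and part of that may be technical.

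Matrilins are secreted proteins that bind to one another and to collagen fibrils and proteoglycans, and form filaments between them. They are best known from cartilage, and matrilin-4 is found more widely than the cartilage forms. Slpi encodes secretory leukocyte protease inhibitor, a small protein with WAP domains that blocks serine proteases such as neutrophil elastase and is made by epithelia and by activated macrophages. Rbpjl encodes a relative of RBPJ, the DNA-binding partner of Notch, and works in pancreatic acinar cells as part of the PTF1 complex. Sdc4 encodes syndecan-4, a heparan sulfate proteoglycan of the cell surface that acts with integrins at focal adhesions on fibronectin. Kcns1 encodes Kv9.1, a potassium channel subunit that gives no current by itself and modifies other potassium channels, and it is known from sensory neurons.

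The 5 genes lie within 280.3 kb of chromosome 2 in the GENCODE M21 annotation, on the build GRCm38. Kcns1 (ENSMUSG00000040164.3) is at 164163619 to 164171113 on the reverse strand. Slpi (ENSMUSG00000017002.14) is at 164354070 to 164389095 and Matn4 (ENSMUSG00000016995.17) at 164389393 to 164405160, both also on the reverse strand. Rbpjl (ENSMUSG00000017007.9) is on the forward strand at 164403141 to 164415448. Sdc4 (ENSMUSG00000017009.3) is on the reverse strand at 164424247 to 164443887. All 5 are annotated as protein-coding.

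Matn4 and Rbpjl point away from each other and their first parts overlap over 2020 bases. Within that overlap, exons of both genes share 149 bases on opposite strands, in stretches of 124 bases (164404491 to 164404614) and 25 bases (164405136 to 164405160). The 149 bases are 2.88% of the exon bases of Matn4 and 2.60% of those of Rbpjl. Slpi follows Matn4 on the same strand. The main Slpi transcript starts at 164356507, 32.9 kb from Matn4, but 1 weakly supported Slpi transcript has a first exon of 280 bases (164388816 to 164389095), and only 297 bases lie between it and the end of Matn4. Slpi and Matn4 share no exon bases. Between Kcns1 and Slpi lie 183 kb with 11 annotated genes, most of them of the WAP and seminal vesicle protein families, and none of the 11 had values.

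Upstream sequences of the 5 genes are shown because 4 of them had large differences in the same direction and the start regions of Matn4 and Rbpjl lie inside each other's gene. Each is the 250 bases before an annotated start, 5′ to 3′ on the gene's own strand, from RefSeq on GRCm38.p6, which lists starts for all 5 genes and a pair of starts for Matn4. For Sdc4 and Rbpjl these starts differ from the GENCODE positions given above. The Sdc4 window lies wholly inside the gene as placed there, and the Rbpjl window partly so. Capitals mark matches on either strand to 6 short motifs: GTGGGAA for RBPJ, GGAATG for TEAD, TGANTCA for AP-1, TGTGGT for RUNX, ACAATG for SOX proteins and TATAAA for the TATA box.
Kcns1 (chr2:164171114-164171363, reverse strand): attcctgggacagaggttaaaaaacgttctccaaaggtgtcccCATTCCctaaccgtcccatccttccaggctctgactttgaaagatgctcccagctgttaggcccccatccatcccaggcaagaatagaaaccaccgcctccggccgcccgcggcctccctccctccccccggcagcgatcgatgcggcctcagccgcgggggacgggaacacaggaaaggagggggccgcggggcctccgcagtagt
Slpi (chr2:164356508-164356757, reverse strand): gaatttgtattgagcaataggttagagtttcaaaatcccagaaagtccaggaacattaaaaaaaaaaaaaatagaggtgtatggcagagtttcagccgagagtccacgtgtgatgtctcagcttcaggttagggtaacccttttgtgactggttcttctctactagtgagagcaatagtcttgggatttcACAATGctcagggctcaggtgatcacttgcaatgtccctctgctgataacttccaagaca
Matn4, outer start (chr2:164405161-164405410, reverse strand): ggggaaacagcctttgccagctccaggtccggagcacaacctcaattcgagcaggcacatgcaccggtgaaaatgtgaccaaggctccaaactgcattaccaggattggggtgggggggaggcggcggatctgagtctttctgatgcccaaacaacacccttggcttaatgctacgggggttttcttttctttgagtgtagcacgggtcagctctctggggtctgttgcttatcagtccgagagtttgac
Matn4, inner start (chr2:164404819-164405068, reverse strand): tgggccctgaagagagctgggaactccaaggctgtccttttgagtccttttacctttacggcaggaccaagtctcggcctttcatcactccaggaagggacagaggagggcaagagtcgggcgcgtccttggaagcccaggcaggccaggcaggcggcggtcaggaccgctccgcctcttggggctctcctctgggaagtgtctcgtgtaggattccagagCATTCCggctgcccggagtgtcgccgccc
Rbpjl (chr2:164402944-164403193, forward strand): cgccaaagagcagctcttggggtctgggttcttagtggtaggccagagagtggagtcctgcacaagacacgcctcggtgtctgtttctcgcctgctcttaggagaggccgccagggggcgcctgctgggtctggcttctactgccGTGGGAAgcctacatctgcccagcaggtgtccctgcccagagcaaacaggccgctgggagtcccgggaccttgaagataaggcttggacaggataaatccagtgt
Sdc4 (chr2:164443189-164443438, reverse strand): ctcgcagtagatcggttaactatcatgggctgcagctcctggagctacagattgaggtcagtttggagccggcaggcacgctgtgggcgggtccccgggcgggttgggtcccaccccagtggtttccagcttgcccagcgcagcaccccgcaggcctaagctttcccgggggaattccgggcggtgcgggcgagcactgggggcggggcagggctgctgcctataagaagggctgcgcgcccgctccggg

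The TEAD letters were in 2 of these 6 windows, that of Kcns1 and the inner one of Matn4, and in 12.6% of 32851 mouse windows of the same length. The RBPJ letters were in 1 window, that of Rbpjl itself, and in 5.42% of all windows. The SOX letters were in 1 window, that of Slpi, and in 10.7% of all. None of the 6 windows held the AP-1, RUNX or TATA box letters, which 6.75%, 14% and 12.4% of all windows held. The broad E-box pattern CANNTG, left in lower case, was in 4 of the 6 windows and in 66.2% of all. The windows also differed in base composition. GC content was 42.0% before Slpi, 63.2% before Kcns1, 60.4% before Rbpjl, 68.0% before Sdc4, and 54.4% and 62.8% before the outer and inner starts of Matn4, against a median of 52.4% over all windows. These matches describe letters and are not shown to be binding sites.

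Values below are normalised read counts per gene, which the authors had rounded to whole numbers. They summed to 14568669 to 16263086 in the injury libraries and 13596488 to 15545903 in the sham libraries. Of 12 tendon markers all had values, and their sum was 16.6 to 18.8% of the total in injury and 4.83 to 9.38% in sham libraries. The most abundant of these was the collagen gene Col1a2, so the sum need not follow the amount of tendon. The 20 skeletal muscle markers also all had values and summed to 0.358, 0.645, 1.69 and 2.22% of the total in injury replicates 1 to 4, against 6.40 to 11.0% in sham libraries. In bulk RNA, fewer cells of a type and less RNA per cell cannot be told apart.

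Matn4 had 14095, 10960, 6602 and 5051 normalised read counts in injury replicates 1 to 4, against 178, 154, 126 and 173 in sham replicates 1 to 4. The lowest injury library was far above the highest sham library. The means were 9177 ± 4124 in injury and 158 ± 23.6 in sham tendon (SD, n = 4 each), and the log2 fold change was 5.75, that is 53.8-fold, on the scale of log2(value + 1). The injury libraries were themselves unequal, with 2.79 times as much in the highest as in the lowest.

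Slpi had 1508, 1206, 708 and 585 normalised read counts in injury replicates 1 to 4 and 23, 16, 31 and 19 in sham replicates 1 to 4. Injury replicates 1 and 2 were high and 3 and 4 low, as for Matn4, and no sham library came near them. Slpi averaged 1002 ± 431 in injury and 22.2 ± 6.50 in sham tendon (SD, n = 4 each), 41.3-fold on the log2(value + 1) scale. The exons of Slpi share a single base with those of another gene, a microRNA within it.

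Rbpjl had 1056, 807, 616 and 474 normalised read counts in injury libraries, in the order of the replicates, and 17, 13, 5 and 12 in sham libraries. The injury libraries stood in the same order as for Matn4 and Slpi, and the groups did not overlap. Its means were 738 ± 252 in injury and 11.8 ± 4.99 in sham tendon (SD, n = 4 each), 59.7-fold on the same scale. The exon overlap with Matn4 bears on this gene, since the sources do not say whether strand was used in counting and Matn4 had the higher values.

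Kcns1 had 442, 283, 298 and 194 normalised read counts in injury replicates 1 to 4, against 2, 3, 2 and 0 in sham replicates. It was at or close to 0 in every sham library and at 194 or more in every injury library. Its log2 fold change of 6.90 rests on these very low sham values, and with 0.1 in place of 1 added before the logarithm it was 8.08. The means were 304 ± 103 in injury and 1.75 ± 1.26 in sham tendon (SD, n = 4 each).

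Sdc4 had 1564, 2342, 1760 and 2629 normalised read counts in injury replicates 1 to 4, against 1190, 1342, 1174 and 1344 in sham replicates 1 to 4. All injury libraries lay above all sham libraries, but by much less than for the other 4 genes, and injury replicate 1, the highest for Matn4, was the lowest for Sdc4. The means were 2074 ± 496 in injury and 1262 ± 93.2 in sham tendon (SD, n = 4 each), 1.61-fold on the log2(value + 1) scale. All 5 genes had every injury library above every sham library, as did 26.7% of all genes with values, and the choice of the genes for being raised fixes that count. A log2 fold change of at least that of Sdc4 with an adjusted p under 0.05 in limma was found for 13.7% of all genes. Ordered by log2 fold change among 15747 genes, Kcns1 stood at place 5, Rbpjl at 8, Matn4 at 10, Slpi at 11 and Sdc4 at 2220.

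**Figure D1:**
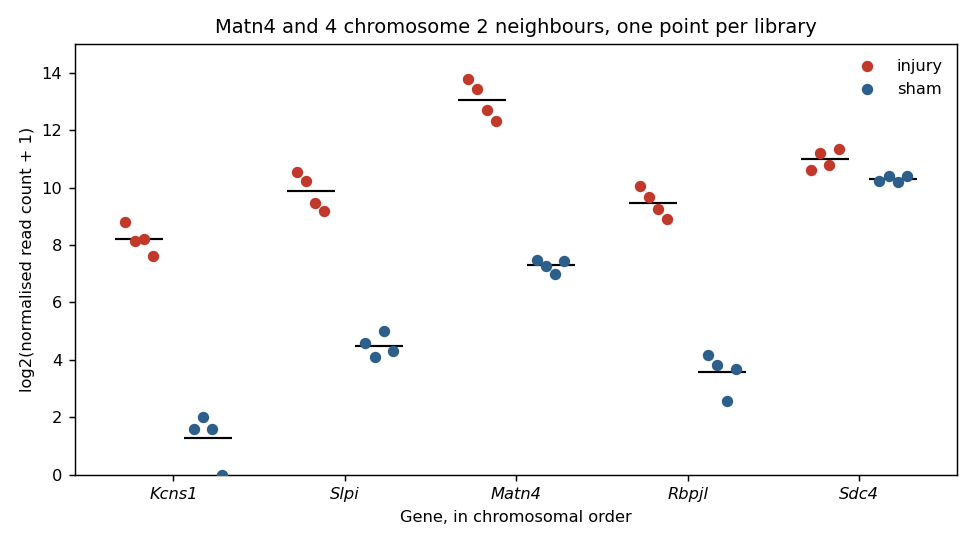
Normalised read counts of the 5 genes as log2(value + 1) in each library, in chromosomal order, with 4 injury libraries (red) to the left of 4 sham libraries (blue) and a bar at the mean. Kcns1, Slpi, Matn4 and Rbpjl have a wide gap between the groups, while Sdc4 has a narrow one, with log2 fold changes of 6.90, 5.37, 5.75, 5.90 and 0.69.

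The muscle share moves with these values. It was lower in every injury than in every sham library, and among injury libraries it was lowest where Matn4 was highest. With the mean level of the muscle markers as a covariate, the log2 fold change was 4.54 for Matn4, 3.94 for Slpi, 5.17 for Rbpjl, 5.54 for Kcns1 and 1.14 for Sdc4. Because the muscle share did not overlap between the groups, the covariate fit can hardly separate muscle from group. A gene can lose its call there through a larger standard error. A further fit left out the 3 libraries highest in muscle within their own group, injury replicates 3 and 4 and sham replicate 4, although both of those injury libraries held less muscle than any sham library. In this fit without the group-high libraries the log2 fold change was 6.35 for Matn4, 5.84 for Slpi, 6.33 for Rbpjl, 6.75 for Kcns1 and 0.63 for Sdc4.

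Per kilobase of annotated exon, the order of the genes differed between the groups. In injury libraries Matn4 was highest, at 1774 ± 797 normalised read counts per kilobase, followed by Slpi at 849 ± 365 and Sdc4 at 814 ± 195 (SD, n = 4). The levels of Slpi and Sdc4 did not differ beyond their spread. Rbpjl at 129 ± 44.0 and Kcns1 at 112 ± 37.9 came last and also lay within each other's spread. In sham libraries Sdc4 was highest by a wide margin, at 496 ± 36.6 per kilobase. Matn4 had 30.5 ± 4.55, Slpi 18.9 ± 5.51, Rbpjl 2.05 ± 0.871 and Kcns1 0.645 ± 0.464 per kilobase there. The exon length of Matn4 includes a retained intron. With the longest coding transcript of each gene as the length instead, injury levels were 3983 ± 1790 per kilobase for Matn4, 1144 ± 492 for Slpi, 844 ± 202 for Sdc4, 301 ± 103 for Rbpjl and 112 ± 37.9 for Kcns1.

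Setting each gene against Matn4 in the same library shows how closely the counts moved together. Slpi was 10.7, 11.0, 10.7 and 11.6% of the Matn4 count in injury replicates 1 to 4, although Matn4 itself varied 2.79-fold among these libraries. In sham replicates 1 to 4 it was 12.9, 10.4, 24.6 and 11.0%. The ratio was thus nearly constant after injury, and the ranges of the groups overlapped, with sham replicate 3 standing high on a count of 31.

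Rbpjl was 7.49, 7.36, 9.33 and 9.38% of the Matn4 count in injury replicates 1 to 4, against 9.55, 8.44, 3.97 and 6.94% in sham replicates. These ranges overlapped too, with means of 8.39 ± 1.12% in injury and 7.22 ± 2.42% in sham tendon (SD, n = 4 each). The exon bases of Matn4 that Rbpjl shares are 2.88% of its exon length. The longest coding transcripts of both genes share 71 bases, 3.08% of that of Matn4. Another Matn4 transcript, of 2243 bases, shares 0 bases with the same Rbpjl transcript. The part of the overlap in the Rbpjl values was not tested.

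Kcns1 was 3.14, 2.58, 4.51 and 3.84% of the Matn4 count in injury replicates 1 to 4, against 1.12, 1.95, 1.59 and 0% in sham replicates. The injury ratios were all above the sham ratios, which rest on 0 to 3 counts. Sdc4 was 11.1, 21.4, 26.7 and 52.0% of Matn4 in injury replicates 1 to 4, against 669, 871, 932 and 777% in sham replicates. Sham tendon thus held several times more counts for Sdc4 than for Matn4, and every injured tendon held fewer.

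On the log2 scale, the injury minus sham difference of the ratio to Matn4 was 0.15 for Rbpjl and −0.38 for Slpi, both within the spread between libraries (SD 0.37 and 0.39). It was 1.15 for Kcns1 (SD 0.75) and −5.06 for Sdc4 (SD 0.67). The value for Kcns1 was 2.32 when 0.1 was added before the logarithm, and 0.40 without the group-high libraries.

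**Figure D2:**
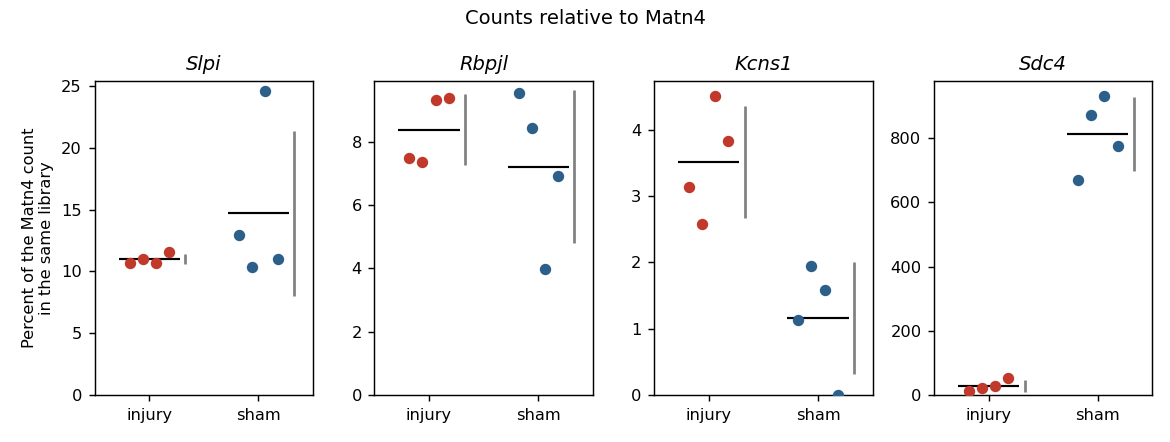
Counts of Slpi, Rbpjl, Kcns1 and Sdc4 as a percentage of the Matn4 count in the same library, with injury left of sham, one point per library, black bars at the means and grey bars of ± 1 SD. Slpi and Rbpjl overlap between the groups, while Kcns1 is higher in injury and Sdc4 falls to 11.1 to 52.0%, against 669 to 932% in sham libraries.

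The genes whose values followed Matn4 most closely were ranked by the SD over the 8 libraries of the log2 ratio to Matn4, among 13086 genes with a mean of at least 50. Rbpjl was first (SD 0.35) and Slpi second (SD 0.42), while Kcns1 was at rank 15 (SD 0.92) and Sdc4 at rank 1912 (SD 2.78). The 10 nearest genes outside the set, leaving out predicted transcripts, were C1qtnf3, Fbn2, Cthrc1, Gpha2, Megf6, Lrrc15, Atp6v0d2, Matn3, Crabp2 and Lgr6, with SDs of 0.53 to 0.87, and none of these is on chromosome 2. The difference between the groups enters this measure, and Rbpjl, Slpi and Kcns1 reach a mean of 50 only through their injury values, so the choice of the set largely fixes their places. Single libraries also weigh on it. Without sham replicate 3 the SD was 0.19 for Rbpjl and 0.11 for Slpi, which turns their order, and without sham replicate 4 it was 0.48 for Kcns1.

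C1qtnf3, the gene of CTRP3, which the title of the series names, had 5283, 8742, 7141 and 6191 normalised read counts in injury replicates 1 to 4 and 109, 119, 87 and 162 in sham replicates. Its highest injury library was replicate 2, not replicate 1 as for Matn4. Gpha2, the gene of a glycoprotein hormone subunit, had 323, 246, 171 and 80 in injury replicates 1 to 4 and 5, 11, 5 and 4 in sham replicates, so its injury libraries stood in the order of Matn4. Cthrc1, the gene of a secreted collagen triple helix repeat protein, had 6054, 5972, 5371 and 4002 in injury replicates 1 to 4 and 30 to 50 in sham libraries.

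The same ratio over the 4 injury libraries alone, a measure chosen after the values were seen, leaves out the difference between groups. Among 12871 genes with an injury mean of at least 50, Slpi had the smallest SD of all (0.05) and Rbpjl the fourth smallest (0.19). Gpha2 was at rank 24 (SD 0.30), Matn3 at rank 50 (SD 0.34) and Kcns1 at rank 55 (SD 0.35). Sdc4 was far down, at rank 11456 (SD 0.92), and C1qtnf3 at rank 8865 (SD 0.77). With 4 libraries this is a description of these libraries.

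Relative to their own injury means, Matn4 was at 154, 119, 71.9 and 55.0% in replicates 1 to 4. The summed muscle markers ran the other way, at 27.1, 51.9, 134 and 187%. Col2a1, the cartilage collagen II gene, was at 38.2, 48.5, 84.5 and 229%, also opposite to Matn4, and Acan, the aggrecan gene, at 69.6, 115, 97.7 and 118%. The summed macrophage markers varied little, at 89.9 to 107%, and so did the summed tendon markers, at 91.8 to 109%. Within the injured tendons, Matn4, Slpi and Rbpjl differed between libraries by more than the summed macrophage, tendon and cartilage markers (93.4 to 105% for cartilage) did. A sum over many genes can hide changes in single ones. Col2a1 alone varied 5.99-fold among these libraries, more than Matn4 at 2.79-fold. What set the libraries apart was not tested.

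**Figure D3:**
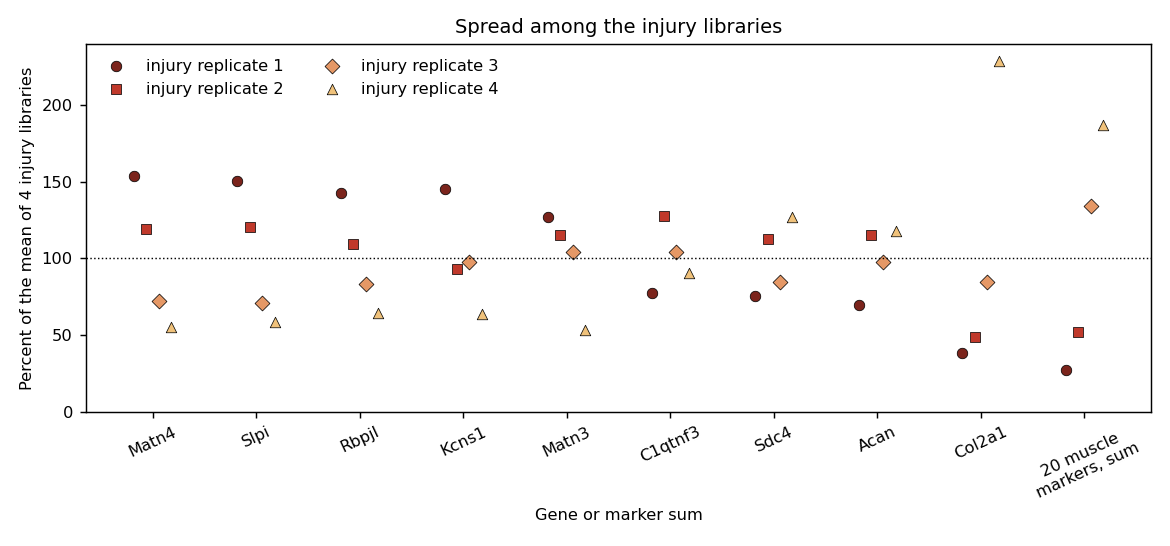
Levels in the 4 injury libraries as a percentage of the mean of these libraries, for 9 genes and for the sum of 20 skeletal muscle markers, with one symbol per replicate. Matn4, Slpi and Rbpjl share one order, at 154, 151 and 143% in replicate 1 and 55.0, 58.4 and 64.2% in replicate 4, while Col2a1 and the muscle sum are highest in replicate 4, at 229 and 187%.

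The other genes around Matn4 were counted by direction. The set holds raised genes of this stretch, so leaving it out lowers the count of genes that rose. Of 61 genes annotated with a start within 500 kb of that of Matn4, 24 had values. Apart from the 5 genes described, 19 remain, of which 4 rose, 5 fell and 10 did not pass the test at an adjusted p of 0.05 (limma, Benjamini-Hochberg adjustment over all genes). That is 47.4% called, where 59.7% of all tested genes were called, 28.5% as higher and 31.3% as lower. Their median log2 fold change was −0.05, beside −0.02 over all genes. With the muscle covariate 2 rose and 1 fell.

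The genes next to the set on either side differed little. Stk4, a kinase gene of the Hippo pathway 8.1 kb from Kcns1, had 522 ± 15.1 normalised read counts in injury and 377 ± 25.4 in sham tendon (SD, n = 4 each), with a log2 fold change of 0.47 and an adjusted p in limma of 0.000399, or 0.0675 with the muscle covariate. Sys1, a Golgi protein gene on the far side of Sdc4, fell by 0.38 on the log2 scale (SE 0.09, adjusted p = 0.00715 in limma). It did not pass without the group-high libraries (adjusted p = 0.0721 in limma). Its exons overlap those of other genes.

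Sdc4 sits at the lower edge of the set, and some neighbours outside it rose as much. Pigt, which encodes a subunit of the enzyme that attaches GPI anchors and was singled out after its values were seen, had 1262, 1262, 1324 and 1239 normalised read counts in injury replicates 1 to 4 and 774, 733, 824 and 767 in sham replicates. Its rise of 1.64-fold compares with 1.61-fold for Sdc4. Ctsa, the gene of the lysosomal protease cathepsin A, and Pltp, the gene of phospholipid transfer protein, were 1.66-fold and 1.75-fold higher, and their exons overlap each other's. No other gene outside the set within 500 kb was more than 1.75-fold higher. Within 1000 kb, 13 of 40 genes outside the set rose and 11 fell, where 28.5% of all genes rose and 31.3% fell. Mmp9 and Ada, both beyond 500 kb, were 4.69-fold and 2.85-fold higher (adjusted p = 1.58e-05 and 0.0012 in limma).

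The most abundant neighbours were a pair that overlaps on opposite strands, as Matn4 and Rbpjl do. Tnnc2, the fast skeletal troponin C gene, had 6236 ± 4823 normalised read counts in injury and 44753 ± 14471 in sham tendon (SD, n = 4 each). Ube2c, the gene of a ubiquitin-conjugating enzyme of the cell cycle on the other strand, had 6660 ± 5022 in injury and 48891 ± 16943 in sham tendon, 105 to 111% of the Tnnc2 count in injury libraries and 107 to 112% in sham libraries. Their exons share 592 bases, 74.0% of the exon length of Tnnc2. Both fell by 3.18 on the log2 scale (adjusted p = 0.000996 for Tnnc2 and 0.0009 for Ube2c in limma), and neither passed with the muscle covariate (adjusted p = 0.15 for Tnnc2 and 0.103 for Ube2c in limma).

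**Figure D4:**
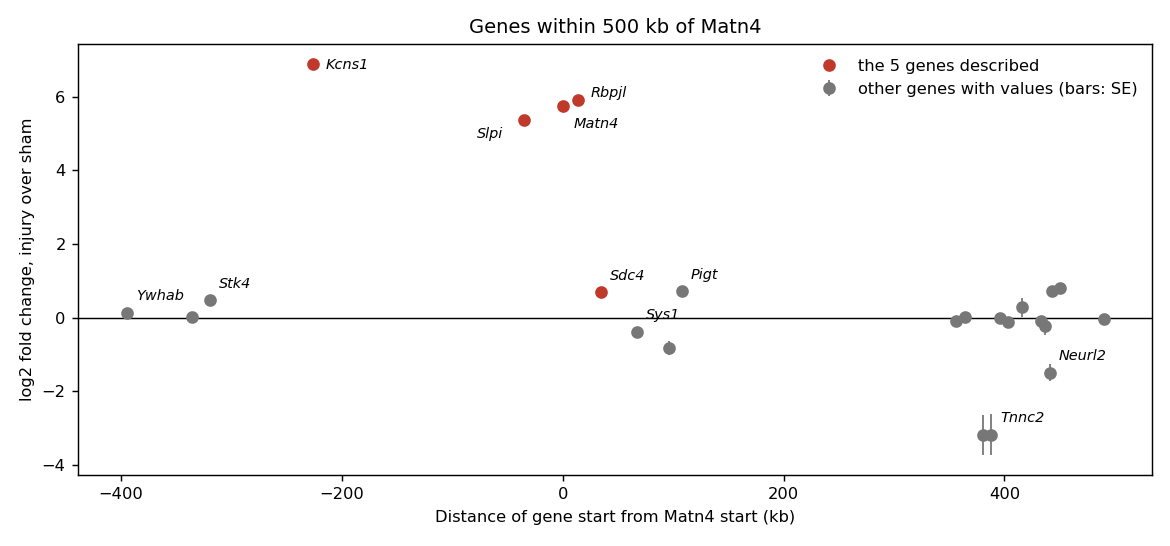
Log2 fold change, injury over sham, of the 24 genes with values whose start lies within 500 kb of that of Matn4, by distance from the Matn4 start in kb. The 5 genes described are red, and the other 19 are grey with bars of 1 SE, all of the grey ones at or below 0.80. The pair near the bottom, at −3.18, is Ube2c and Tnnc2.

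The WAP and Kunitz inhibitor genes and the seminal vesicle genes that surround Slpi in the genome gave no values. In the window of 500 kb, 24 genes of the Wfdc, Spint, Svs and Eppin families are annotated and 0 had values, so Slpi was the lone inhibitor gene of this cluster with a level. Of the WAP domain genes elsewhere, 4 had values, and 2 rose and 2 fell, where 28.5% of all genes rose and 31.3% fell. Wfdc1 rose 1.89-fold to 1383 ± 142 in injury, against 738 ± 133 in sham tendon (SD, n = 4 each), and Wfdc17, expressed by macrophages, rose 2.24-fold to 188 ± 28.5, against 84.5 ± 19.8. Wfdc21 and Wfikkn2, the gene of a myostatin-binding protein, fell, with log2 fold changes of −1.63 and −1.15 (adjusted p = 0.00981 and 0.00126 in limma). With the muscle covariate, Wfdc1 was the one of these that passed.

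Among proteases that SLPI can block, the neutrophil genes Elane, Ctsg and Prtn3 had no values. The mast cell protease genes Cma1, Mcpt4 and Tpsb2 were low, with means of 67.0, 85.2 and 84.2 normalised read counts in injury and 52.5, 73.5 and 70.0 in sham tendon, and none of the 3 passed (adjusted p of 0.566, 0.948 and 0.796 in limma). Of all genes, 59.7% passed. Of 11 neutrophil markers, only the receptor gene Csf3r had values, at 112 to 180 in injury and 28 to 83 in sham libraries. All 11 macrophage markers had values, and their sum was 29750 to 35358 in injury and 13186 to 18885 in sham libraries. Of 12 epithelial markers 6 had values, and their sum was 255 to 507 in injury and 385 to 463 in sham libraries, while Krt5, Krt14 and Epcam had none. The part of these cell types in the Slpi values was not tested.

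The other measured matrilins rose with Matn4 to different degrees, where 28.5% of all genes rose. Matn3, a cartilage matrilin, had 1046, 950, 856 and 436 normalised read counts in injury replicates 1 to 4 and 30, 43, 41 and 20 in sham replicates. Its means of 822 ± 269 in injury and 33.5 ± 10.7 in sham tendon (SD, n = 4 each) gave a 23.6-fold rise (4.56 ± 0.31 SE on the log2 scale, with an adjusted p of 7.23e-06 in limma). Matn2, the widespread matrilin and the one with the most counts in sham tendon, had 7049, 8344, 7158 and 8473 in injury replicates 1 to 4, against 2663, 3834, 3324 and 2296 in sham replicates, a 2.60-fold rise (adjusted p = 9.48e-05 in limma). Matn1 had no values. In injured tendon, counts for Matn4 thus came to the range of those for Matn2, where in sham tendon they were far below.

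Of 12 genes for proteins that matrilins bind or that lie with them in cartilage, 10 rose, none fell and 2 did not pass, where 28.5% of all genes rose and 31.3% fell. Their median log2 fold change was 2.39, beside −0.02 over all genes. Acan rose 20.6-fold, to 9713 ± 2152 in injury, against 469 ± 96.9 in sham tendon (SD, n = 4 each). Col11a1, a fibrillar collagen gene, rose 9.54-fold and Hapln1, the gene of a link protein of hyaluronan and aggrecan, 5.10-fold. Comp, the gene of a pentameric matrix protein, had 79837 ± 8123 in injury and 49626 ± 8888 in sham tendon (adjusted p = 0.022 in limma). It did not pass when injury replicate 2, 3 or 4 was left out, nor with equal library totals, the replicate block, the muscle covariate or the group-high libraries left out (adjusted p of 0.0539 to 0.14 in limma). The most abundant, Col1a1, did not pass (adjusted p = 0.0524 in limma), but passed without sham replicate 2 (adjusted p = 0.0204 in limma). It also passed with a pseudocount of 0.1 and with median-ratio size factors. Dcn, the decorin gene, had 118242 ± 15794 in injury and 124396 ± 23971 in sham tendon.

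The other syndecans all rose, and by more than the 1.61-fold of Sdc4. Sdc1 had 5053 ± 454 normalised read counts in injury and 1798 ± 266 in sham tendon (2.83-fold), Sdc3 had 6331 ± 514 and 2186 ± 366 (2.92-fold), and Sdc2 had 2577 ± 265 and 1257 ± 239 (2.07-fold, SD, n = 4 each). The adjusted p-values in limma were 1.56e-05 for Sdc1, 1.72e-05 for Sdc3 and 0.000151 for Sdc2. With the muscle covariate the order was not kept, with log2 fold changes of 1.14 for Sdc4, 1.24 for Sdc1, 0.80 for Sdc2 and 1.22 for Sdc3. The difference between these rises and that of Sdc4 was not tested. Among glypicans, the related proteoglycans held by a lipid anchor, Gpc1, Gpc4 and Gpc6 rose and Gpc3 did not pass. Of 7 measured syndecans and glypicans other than Sdc4, 6 thus rose, where 28.5% of all genes rose.

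Of 13 partners of syndecan-4 in cell adhesion, 11 rose, 1 fell and 1 did not pass, where 28.5% of all genes rose and 31.3% fell. Their median log2 fold change was 0.45, beside −0.02 over all genes. Actn1, the gene of alpha-actinin-1, which binds the cytoplasmic tail of syndecan-4, rose 2.40-fold. Fn1, the fibronectin gene, rose 5.05-fold to 150461 ± 16822 in injury, against 29877 ± 4178 in sham tendon, and Itga5, the gene of the alpha chain of a fibronectin receptor, rose 1.58-fold (SD, n = 4 each, adjusted p of 4.12e-06, 3.38e-05 and 4.57e-05 in limma). Pxn, the paxillin gene, fell by 0.30 on the log2 scale (adjusted p = 0.00192 in limma), and was not called with the muscle covariate (adjusted p = 0.137 in limma). Prkca, the gene of the kinase that syndecan-4 activates, passed with an adjusted p of 0.0351 in limma but not when any of 5 libraries was left out (sham replicate 1, 2 or 3, or injury replicate 2 or 4).

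Rbpj itself, the ubiquitous relative of Rbpjl, had 946, 900, 884 and 1143 normalised read counts in injury replicates 1 to 4, against 842, 712, 872 and 716 in sham replicates. It was higher by 0.30 on the log2 scale with an SE of 0.11 (adjusted p = 0.0341 in limma), and it did not pass when sham replicate 2 or 4 or injury replicate 1 or 4 was left out, nor without the group-high libraries, with equal totals or with the muscle covariate (adjusted p of 0.0571 to 0.201 in limma). Ptf1a, the partner of Rbpjl in pancreas, had no values. Of 12 markers of pancreatic acinar cells, 1 had values, Cela1, at 23 to 37 in injury and 19 to 41 in sham libraries.

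Of 15 measured genes of the RBPJ, PTF1 and Notch list other than Rbpjl, 7 rose, 4 fell and 4 did not pass, where 59.7% of all genes passed, 28.5% as higher and 31.3% as lower. Their median log2 fold change was −0.04, beside −0.02 over all genes. Notch2, a receptor gene, rose 2.22-fold, Maml1, the gene of a Notch co-activator, 1.73-fold and Tcf12, the gene of an E protein that can join PTF1, 1.69-fold. Notch4, the endothelial receptor gene, fell by 0.79 on the log2 scale, and the Notch target genes Hey1, Hey2 and Nrarp fell too, with log2 fold changes of −0.61, −1.31 and −0.50. The targets Hes1 and Heyl, at −0.17 and −0.43, did not pass (adjusted p = 0.175 and 0.117 in limma). Both passed as lower with equal library totals (adjusted p = 0.0378 and 0.0497 in limma), and Heyl also without the group-high libraries (adjusted p = 0.00559 in limma). Notch3, the most abundant over all 8 libraries though below Notch2 and Tcf12 in injury, had 1595 ± 427 in injury and 1979 ± 190 in sham tendon (SD, n = 4 each, adjusted p = 0.128 in limma), and passed as lower without injury replicate 3 (adjusted p = 0.0422 in limma) and without the group-high libraries (adjusted p = 0.00487 in limma). The split depended on scaling, with 4 higher and 6 lower when every library was scaled to the same total. It was 5 higher and 6 lower without the group-high libraries, and 3 higher and 0 lower with the muscle covariate. The endothelial markers summed to 9533 to 13467 in injury and 13840 to 16857 in sham libraries, and their part was not tested.

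Kcns1, chosen for being raised, was alone among the measured silent potassium channel subunits in being higher. The others with values were Kcns3, Kcng1, Kcng2 and Kcng4, and all 4 fell, where 31.3% of all genes fell. Kcns3, the gene of Kv9.3, fell to 8.50 ± 3.79 in injury, against 45.5 ± 21.5 in sham tendon, and Kcng4, of another silent subunit, to 52.2 ± 35.9, against 431 ± 143 (SD, n = 4 each). With the muscle covariate, only Kcng1 of these 4 passed, and the adjusted p in limma was 0.115 for Kcns3, 0.0648 for Kcng2 and 0.0607 for Kcng4. Their log2 fold changes were then −1.63, −1.20 and −1.36, against −2.26, −0.79 and −3.19 without the covariate. Kcng2 thus lost its call with a larger difference, as its SE went from 0.21 to 0.43. Kcns2 had no values. Of 15 neuronal markers 4 had values, summing to 285 to 401 in injury and 340 to 542 in sham libraries, and Snap25, Nefl, Scn10a and Rbfox3 had none.

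**Figure D5:**
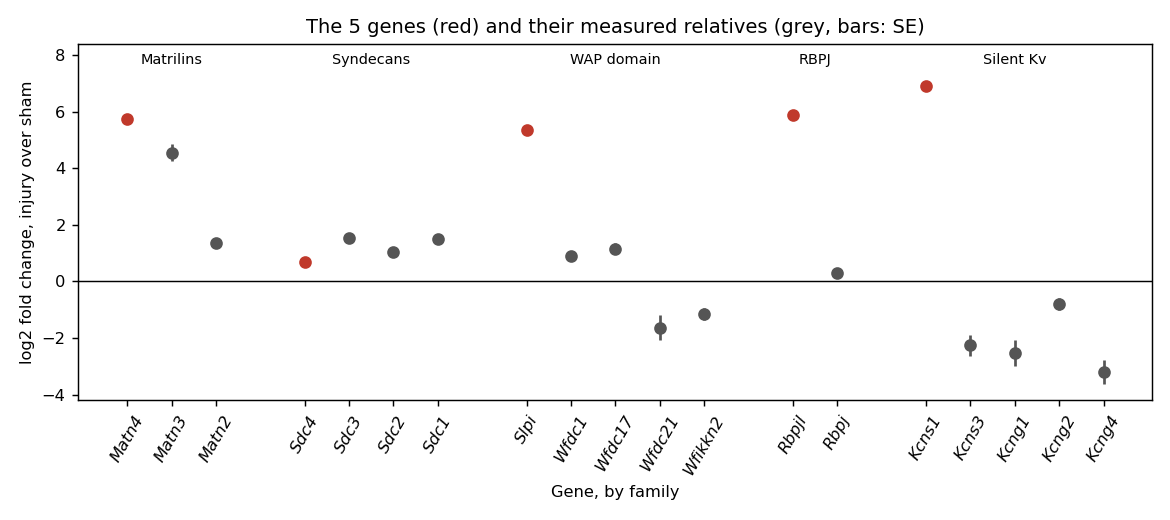
Log2 fold change, injury over sham, of the 5 genes (red) and their measured relatives (grey, bars of 1 SE) by family. Matn4, Slpi, Rbpjl and Kcns1 are the highest of their families, a place that their choice for being raised largely fixes. Sdc4, at 0.69, is the lowest of the syndecans in this fit, though above Sdc2 with the muscle covariate (1.14 and 0.80). The 4 other silent channel subunits are below 0.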

How the data were processed

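RNA of 4 injury and 4 sham libraries was analysed, grouped by the sample titles. The deposited files hold a score per gene, a normalised read count rounded by the authors per the file headers, so depth in reads is unknown and no count model was used. The submitters' processing notes name Trimmomatic 0.39, STAR 2.7.6a, StringTie 1.3.5, edgeR 3.12 and the builds mm10 and mm9, without roles. No source used here gives the normalization, the strandedness or why 39703 genes have no values. Rounding weighs most on the lowest values, as for Kcns1 in sham libraries.

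Genes were tested with limma 3.58.1 (R 4.3.3, trended prior variance) on log2(value + 1), after keeping those at 1 or above in 4 or more libraries, which removed none. P-values were two-sided and Benjamini-Hochberg adjusted over 15747 genes, with a threshold of 0.05, and 9402 genes passed. The fit was tested on simulated data with 200 changed genes among 15747, far fewer than were called here. It recovered 50% of the genes changed 1.5-fold, 78% at 2-fold, 98% at 4-fold and 100% at 8-fold, with 9 false calls. Small differences can thus fail to pass. Positions and exon lengths came from GENCODE M21, which held 99.9% of identifiers, and promoters from RefSeq.

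The genes, lists and tests were chosen with earlier results of these data known. Named relatives are family members, up to 3 called genes per list with the smallest adjusted p, one called the opposite way and the most abundant, and any others were picked after their values were seen. Neighbours were named if they adjoin the set or are among the 3 most abundant, and Pigt, Pltp, Mmp9 and Ada were added after their values were seen. Alternatives were another pseudocount, no filter, other scalings, a replicate block, a muscle covariate, other windows and lengths, and each library left out. Leaving out the 3 libraries highest in muscle within their group, and the coding transcript length, were added after the data were seen. Plots used matplotlib 3.10.9 and Python 3.11.15.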

Additional observations from a re-analysis of the deposited data

Results flagged for a closer look

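Among the values above, 11 of 196 groups of 4 libraries held 1 library far from the other 3, where chance flags about 5% of groups, and none was a value of the 5 genes or of their ratios to Matn4. High libraries were Col1a1 in injury replicate 2 (1113752, the others 882213 to 919942), Gpc4 in injury replicate 4 (935, the others 823 to 829) and Wfdc21 in injury replicate 3 (27, the others 7 to 8). In sham libraries, Prkca (660, the others 524 to 537) and Neurl2 (290, the others 196 to 209) were high in replicate 4. Notch3 (2263, the others 1862 to 1899) and Hey2 (80, the others 54 to 56) were high in sham replicate 1, and Gpha2 (11, the others 4 to 5) in sham replicate 2. Low libraries were Maml2 in injury replicate 4 (340, the others 383 to 386) and Maml3 in injury replicate 2 (148, the others 182 to 187) and in sham replicate 3 (118, the others 144 to 148).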

How the results depend on the processing

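The log2 fold changes of the 5 genes stayed positive under every alternative run. Leaving out 1 library at a time gave 5.51 to 6.00 for Matn4, 5.14 to 5.59 for Slpi, 5.57 to 6.10 for Rbpjl, 6.47 to 7.14 for Kcns1 and 0.56 to 0.81 for Sdc4. The muscle covariate moved them to 4.54, 3.94, 5.17, 5.54 and 1.14 in the same order, a pseudocount of 0.1 moved Kcns1 to 8.08, and the fit without the 3 libraries highest in muscle within their group moved Matn4 to 6.35. The log2 ratio of Kcns1 to Matn4, injury minus sham, was 1.15, 2.32 with that pseudocount and 0.40 without those 3 libraries, and was 0.67 to 1.39 with 1 library left out. The other ratios were then −0.07 to 0.29 for Rbpjl, −0.51 to −0.11 for Slpi and −5.44 to −4.69 for Sdc4. Of all genes, 9402 were called, 8641 to 9015 with 1 library left out and 4021 with the muscle covariate. Neighbours called within 500 kb were 9, also with any 1 library left out, but 3 with the covariate. They were 9 of 19 within 500 kb, 3 of 3 within 250 kb and 24 of 40 within 1000 kb. List genes called were 49, 45 to 48 with 1 library left out and 32 with the covariate. Of 79 named neighbours and list genes, 23 lost their call with the covariate, and no called gene changed sign under any alternative. Muscle and group are hardly separable in that fit, and some of these genes, such as Kcng2 and Maml3, had larger differences there with larger standard errors. For these changes the cause was not tested. Same-numbered libraries correlated at 0.27, 0.39, −0.06 and 0.56 in their deviations from the group means, so the numbers were not taken to pair the samples, since 1 of the 4 was not above 0.1, and not every library correlated best with its own number. With the replicate number as a block, 9742 genes, 9 neighbours and 48 list genes were called. The depth in reads is unknown.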

Other observations

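Some of the genes that followed Matn4 most closely over the 4 injury libraries were genes of the circadian clock or under its control, with far smaller differences between injury and sham tendon than Matn4. Wee1, a cell cycle kinase gene under clock control, was second of 12871 and had 316, 260, 183 and 130 normalised read counts in injury replicates 1 to 4, against 259, 211, 145 and 91 in sham replicates. Per3, a circadian clock gene at rank 14, had 749, 548, 369 and 189 in injury replicates 1 to 4, against 1016, 743, 996 and 351 in sham replicates. Hlf, the gene of a clock-controlled transcription factor at rank 9, had 296, 321, 147 and 143 in injury replicates 1 to 4, against 218, 167, 102 and 76 in sham replicates. In Wee1, Per3 and Hlf, sham replicate 1 was the highest and sham replicate 4 the lowest of the sham libraries. Matn4 (178, 154, 126 and 173) was also highest in sham replicate 1 but lowest in sham replicate 3. These genes were picked after their values were seen, and no test was made.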
